A study of Mus musculus with 24 samples.

Results

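The regions described here are stretches of mouse liver chromatin marked by H3K4me3 in both wild-type and Smyd3-deficient DEN-treated livers, in which no Smyd3 peak is listed. They were chosen from the deposited lists as lines of the H3K4me3 wild-type list that are shorter than 4000 bp, overlap the H3K4me3 Smyd3KO list by at least 1 bp and overlap no line of the Smyd3 list. The rule left 3366 of the 15579 wild-type regions (21.6%). Another 9285 shared regions under 4000 bp do hold a Smyd3 peak and serve as the comparison. A gene was assigned to a region where its start site lay within 1000 bp, which gave 1767 of the 37583 genes in the RNA table.

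The study asked what the loss of Smyd3 does in livers exposed to diethylnitrosamine (DEN), a carcinogen that leads to liver tumours in rodents. RNA came from 12 livers of C57BL6/CBA mice aged 8.5 months in 4 groups of 3. Mice without treatment were wild type (WT) or Smyd3KO (KO), and those given 1 intraperitoneal dose of 25 mg/kg DEN were likewise wild type (DEN_WT) or Smyd3KO (DEN_KO). In the knockout mice a gene-trap cassette sits in intron 5 of Smyd3, which leaves the earlier exons open to transcription. Chromatin came from livers of DEN-treated mice of the same age, with 2 replicates behind each list: a rabbit antiserum against Smyd3 in wild type, and an antibody against H3K4me3 in wild type and in knockout. Each list is single, so lengths and overlaps have no replicate error, and no untreated chromatin was measured.

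H3K4me3 is trimethylation of lysine 4 on histone H3, a mark laid down around active or poised start sites, mostly where the promoter is rich in CpG dinucleotides. Smyd3 is a lysine methyltransferase of the SET and MYND domain family that can sit on the chromatin of many promoters and is raised in several tumour types. Promoters of hepatocyte genes often have few CpGs and answer to liver-enriched factors and nuclear receptors.

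The promoters below belong to the genes at these regions with the largest RNA differences in each direction that have a RefSeq entry. They were picked by RNA change, so they do not stand for all start sites without a Smyd3 peak. They are RefSeq sequences of build GRCm38.p6, each from 250 bases before to 50 bases after the start, 5′ to 3′, with every CG dinucleotide in capitals. The H3K4me3 regions themselves are on build mm9, and their own sequence was not analysed here.
Lcn2 promoter, chr2:32387690-32387989 (minus strand): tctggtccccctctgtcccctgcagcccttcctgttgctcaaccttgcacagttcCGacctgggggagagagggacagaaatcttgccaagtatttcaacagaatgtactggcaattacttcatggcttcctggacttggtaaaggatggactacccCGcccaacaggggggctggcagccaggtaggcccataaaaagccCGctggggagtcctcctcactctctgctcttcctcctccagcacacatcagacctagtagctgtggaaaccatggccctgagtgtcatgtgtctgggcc
Psrc1 promoter, chr3:108383554-108383853 (plus strand): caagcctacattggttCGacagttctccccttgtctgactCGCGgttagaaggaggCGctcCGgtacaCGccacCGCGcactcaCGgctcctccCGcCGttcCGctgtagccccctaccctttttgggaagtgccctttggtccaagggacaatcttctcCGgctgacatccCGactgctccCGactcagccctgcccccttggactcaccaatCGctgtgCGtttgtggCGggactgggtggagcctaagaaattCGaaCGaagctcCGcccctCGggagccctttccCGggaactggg
Mup17 promoter, chr4:61595783-61596082 (minus strand): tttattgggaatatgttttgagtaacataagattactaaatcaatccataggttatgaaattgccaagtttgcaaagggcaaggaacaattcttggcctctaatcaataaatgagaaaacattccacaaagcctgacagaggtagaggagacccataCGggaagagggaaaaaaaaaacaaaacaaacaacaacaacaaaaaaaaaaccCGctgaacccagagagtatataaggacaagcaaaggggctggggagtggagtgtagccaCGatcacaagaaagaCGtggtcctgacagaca
Selenbp2 promoter, chr3:94693323-94693622 (plus strand): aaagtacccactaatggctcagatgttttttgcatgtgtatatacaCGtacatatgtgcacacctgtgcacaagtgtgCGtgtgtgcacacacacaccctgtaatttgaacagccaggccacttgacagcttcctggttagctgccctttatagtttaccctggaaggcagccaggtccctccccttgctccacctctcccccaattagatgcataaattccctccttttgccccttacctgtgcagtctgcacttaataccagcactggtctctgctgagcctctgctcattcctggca
Lrtm1 promoter, chr14:29017958-29018257 (plus strand): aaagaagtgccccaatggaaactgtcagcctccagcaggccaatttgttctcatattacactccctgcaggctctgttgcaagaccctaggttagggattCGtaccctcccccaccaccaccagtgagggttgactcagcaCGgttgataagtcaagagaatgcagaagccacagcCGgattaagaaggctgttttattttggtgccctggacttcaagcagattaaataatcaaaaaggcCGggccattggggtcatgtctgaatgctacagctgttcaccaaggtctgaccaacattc
Gsta2 promoter, chr9:78347096-78347395 (minus strand): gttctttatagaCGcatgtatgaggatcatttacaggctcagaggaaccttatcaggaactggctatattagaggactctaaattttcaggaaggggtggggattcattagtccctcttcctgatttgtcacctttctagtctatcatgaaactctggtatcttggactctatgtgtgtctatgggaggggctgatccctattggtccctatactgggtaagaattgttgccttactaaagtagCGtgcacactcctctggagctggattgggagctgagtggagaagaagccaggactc
Sparc promoter, chr11:55420031-55420330 (minus strand): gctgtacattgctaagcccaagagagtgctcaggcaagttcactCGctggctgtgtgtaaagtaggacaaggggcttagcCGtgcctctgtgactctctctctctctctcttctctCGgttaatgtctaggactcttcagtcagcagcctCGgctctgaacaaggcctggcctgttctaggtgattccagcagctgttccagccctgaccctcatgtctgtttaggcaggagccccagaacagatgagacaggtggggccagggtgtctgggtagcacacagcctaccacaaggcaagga

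The Psrc1 promoter holds 23 CG dinucleotides, while those of Lcn2 (3), Mup17 (4), Selenbp2 (2), Lrtm1 (4), Gsta2 (2) and Sparc (4) hold 2 to 4. The median over all 27018 promoters of the table is 7 (quartiles 3 and 20.75), so 1 of the 7 lies above the upper quartile and 6 below the median. Motifs were searched on both strands. CCCTCC, a sequence reported for Smyd3, stands in the Selenbp2, Lrtm1 and Gsta2 promoters and in 38.5% of all promoters. The GC box GGGCGG stands in those of Lcn2 and Psrc1 (35.9% of all), CCAAT in those of Psrc1, Mup17, Selenbp2, Lrtm1 and Gsta2 (38.0%), and TATAAA in those of Selenbp2 and Gsta2 (14.2%). The ETS core CCGGAA (15.2% of all) and the NRF1 motif (0.981%) are in none of the 7. Each match is only a match of letters in this window.

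Regions without a Smyd3 peak were shorter than those with one. Their median length was 1078.5 bp (quartiles 617.25 and 1749.5, range 169 to 3995), against 1697 bp (quartiles 1204 and 2336) for shared regions with a peak. Length and the lack of a peak went together across the whole range. Of shared regions under 500 bp 78.7% lacked a Smyd3 peak, of those from 500 to under 1000 bp 41.5%, from 1000 to under 2000 bp 20.7%, and from 2000 to under 4000 bp 16.1%. A longer region has more room to overlap a peak, and the part of that in these shares was not tested. The nearest Smyd3 peak lay a median of 23864 bp away. It was over 10000 bp away for 2447 regions and within 1000 bp for 76, with the smallest gap being 22 bp.

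**Figure D1:**
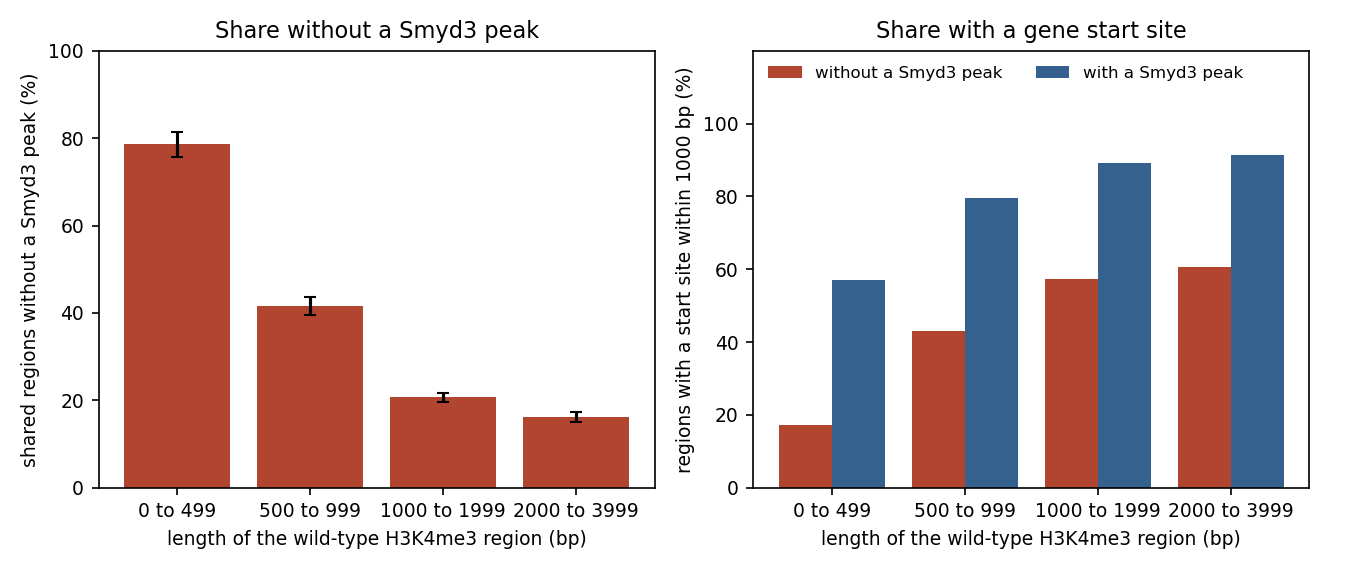
Shared H3K4me3 regions under 4000 bp by length in bp (x axis). The left panel gives the percent without a Smyd3 peak with exact 95% binomial intervals (counting error only), falling from 78.7% to 16.1%, and the right panel gives the percent with a start site within 1000 bp for regions without (red) and with (blue) a Smyd3 peak.

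Most of these regions lay away from annotated gene starts. A start site was within 1000 bp of 1561 regions (46.4%, exact 95% interval 44.7 to 48.1), against 8169 of the 9285 with a Smyd3 peak (88.0%, 87.3 to 88.6). The gap held within each length class, from 17.3% against 57.1% under 500 bp to 60.5% against 91.4% at 2000 bp or more. The 1805 regions without a start site had a median length of 843 bp, and the nearest start was a median of 17292 bp away and over 10000 bp away for 1203 of them. Of the 1805, 750 (41.6%) overlapped a protein-coding gene by at least 1 bp, and 320 (17.7%) lay within 5000 bp of another wild-type H3K4me3 region. Coding start sites on both strands were found at 98 of 1410 regions with a coding start (6.95%), against 1008 of 7931 with a Smyd3 peak (12.7%).

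The regions at both ends of the range differ in what they touch. The longest, 3995 bp (chr3:60331564-60335558, mm9), overlaps a protein-coding gene, and the nearest start, 54532 bp away, is that of Mbnl1, a splicing regulator. The next, 3994 bp (chr1:173154048-173158041), covers the start of Apoa2, an apolipoprotein of HDL. A region of 4003 bp on chromosome 16 is the first beyond the limit. The shortest, of 169 bp, include chr13:20624089-20624257, whose nearest start, 261731 bp away, is that of Aoah, an enzyme that breaks down bacterial lipid. The region closest to a Smyd3 peak without touching it is chr8:73267726-73268813, 22 bp away, with the nearest start that of Rab3a, a vesicle GTPase, at 9765 bp.

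The X chromosome stood apart. Of its 482 shared regions under 4000 bp, 240 had no Smyd3 peak (49.8%, exact 95% interval 45.2 to 54.3), against 20.3% to 35.2% on the 19 autosomes (median 25.7%). With only regions at a start site counted, the share was 118 of 321 on X (36.8%) against 11.3% to 20.6% on autosomes. All 11 such regions of Y lacked a peak (interval 71.5 to 100). The X regions were also shorter, with a median of 1243 bp over all shared X regions under 4000 bp against 1488 to 1696 bp on the autosomes. Sex is not in the labels, and Kdm5d, a Y-linked H3K4 demethylase whose start is at one of these regions, was read in all 12 libraries (168 to 452). The copy number of X and its part in the share were not tested.

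**Figure D2:**
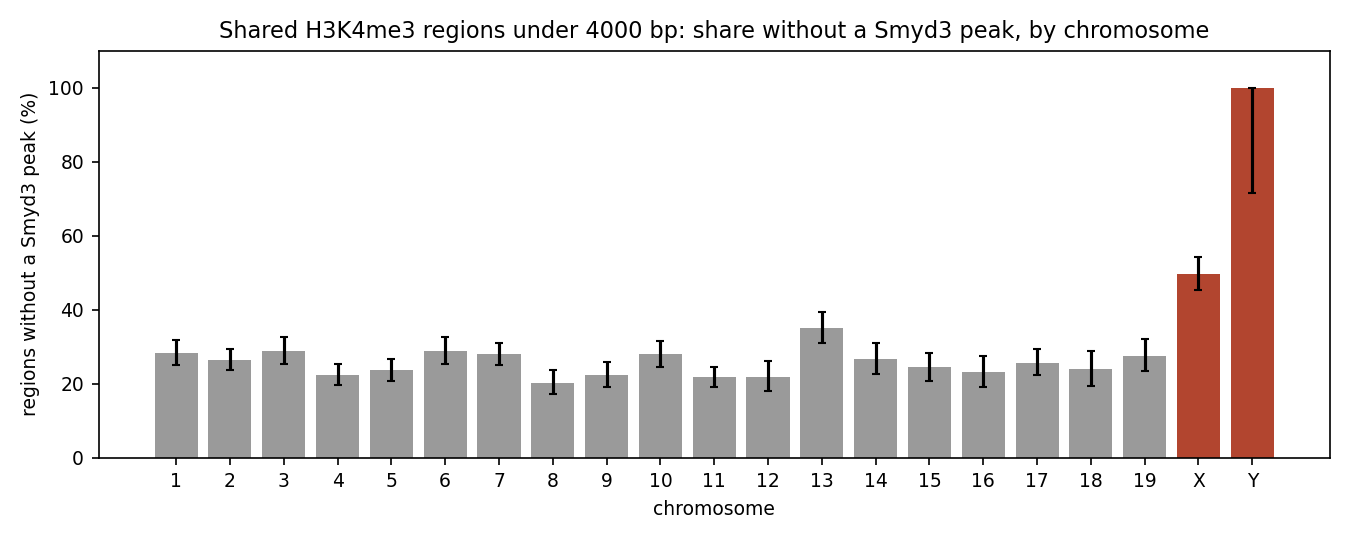
Percent of shared H3K4me3 regions under 4000 bp that hold no Smyd3 peak (y axis) on each chromosome (x axis), with exact 95% binomial intervals for counting error. Autosomes (grey) run from 20.3% to 35.2%, X is at 49.8% and Y, with 11 regions, at 100%.

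At shared regions under 4000 bp the mark tended to span more sequence in the knockout list, with and without a Smyd3 peak alike. Among 3212 regions that pair 1 to 1 with a knockout region, the knockout region was the longer in 2123 (66.1%), with a median knockout-to-wild-type length ratio of 1.16 (quartiles 0.90 and 1.57). With a Smyd3 peak the knockout region was longer in 66.7%, and the median ratio was 1.11. A ratio of 2 or more was found for 14.8% without and 4.57% with a peak. Within a length class the medians were near each other: 1.56 and 1.48 under 500 bp, 1.25 and 1.26 from 500 to under 1000 bp, 1.07 and 1.13 from 1000 to under 2000 bp, and 0.99 and 1.03 from 2000 bp. At shared regions of 4000 bp or more the medians were 0.95 without and 1.01 with a peak. There the knockout region was the longer in 37.7% and 53.3%. The knockout list has 17491 regions against 15579, and how depth or calling shaped the lengths was not tested. The wild-type list also set which regions are short, so a short region there has more room to be longer in the other list.

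The 5 highest length ratios at a gene were those of 1700029I01Rik (54.7), Msr1 (35.1), Gm6020 (20.3), Cyp7a1 (13.2) and Zfp960 (11.9), and the 5 lowest those of Rims4 (0.17), Gm12923 (0.25), Mir3083 (0.27), Gal3st1 (0.28) and Ifi27l2b (0.29). Near the start of Msr1, the macrophage scavenger receptor, the wild-type region had 203 bp (chr8:40727095-40727297) and the knockout region 7131 bp. Near that of Cyp7a1, the rate-limiting enzyme of bile acid synthesis, 365 bp (chr4:6202083-6202447) stood against 4824 bp. In the other direction Rims4, a synaptic scaffold gene, had 1654 bp in wild type and 282 bp in the knockout, and Gal3st1, a sulfotransferase, 1197 and 337 bp. Ifi27l2b, an interferon-inducible gene, went from 1693 to 493 bp.

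The 1767 assigned genes comprise 1522 protein-coding genes, 96 lincRNAs, 44 pseudogenes, 35 antisense RNAs, 20 miRNAs and 19 snoRNAs, among others. For 1364 of them the start site itself lay inside the region, and 8 were also near an H3K4me3 region outside the set. Enough signal for testing (3 or more libraries with a value of 10 or more) was found for 1519. Of the other 248 genes 57 were at 0 in every library. Genes that passed the filter make up 9.22% of all 16471 tested genes, against 54.7% for genes at shared regions with a Smyd3 peak.

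Among shared regions under 4000 bp, some gene lists had more of their genes at those without a Smyd3 peak than at those with one. Genes at longer regions or at regions listed in wild type only are in neither count. Of 34 interferon-induced genes 16 (47.1%) had their start at a region without a Smyd3 peak and 6 at one with it. Of 35 cytochrome P450 and drug metabolism genes 14 (40.0%) did, against 4. Of 43 hepatocyte identity and secreted protein genes 10 (23.3%) did, against 3, and of 11 endothelial markers 5 against 0. Genes of the cell cycle were the other way round, with 5 of 43 DNA replication genes against 36, 8 of 69 DNA repair genes against 52, and 4 of 38 mitosis genes against 28. Of 113 developmental transcription factors 0 were at a region without a Smyd3 peak, against 24 with one. For 83 genes of Wnt, Hedgehog, Notch and BMP signalling the counts were 0 and 29, and for 26 immediate early genes 0 and 15. The Zfp zinc finger genes, mostly repressors that bind DNA through tandem fingers, supplied 87 of their 375 genes (23.2%), against 187 with a Smyd3 peak. These are counts, and the lists were chosen with earlier results of these data known.

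**Figure D3:**
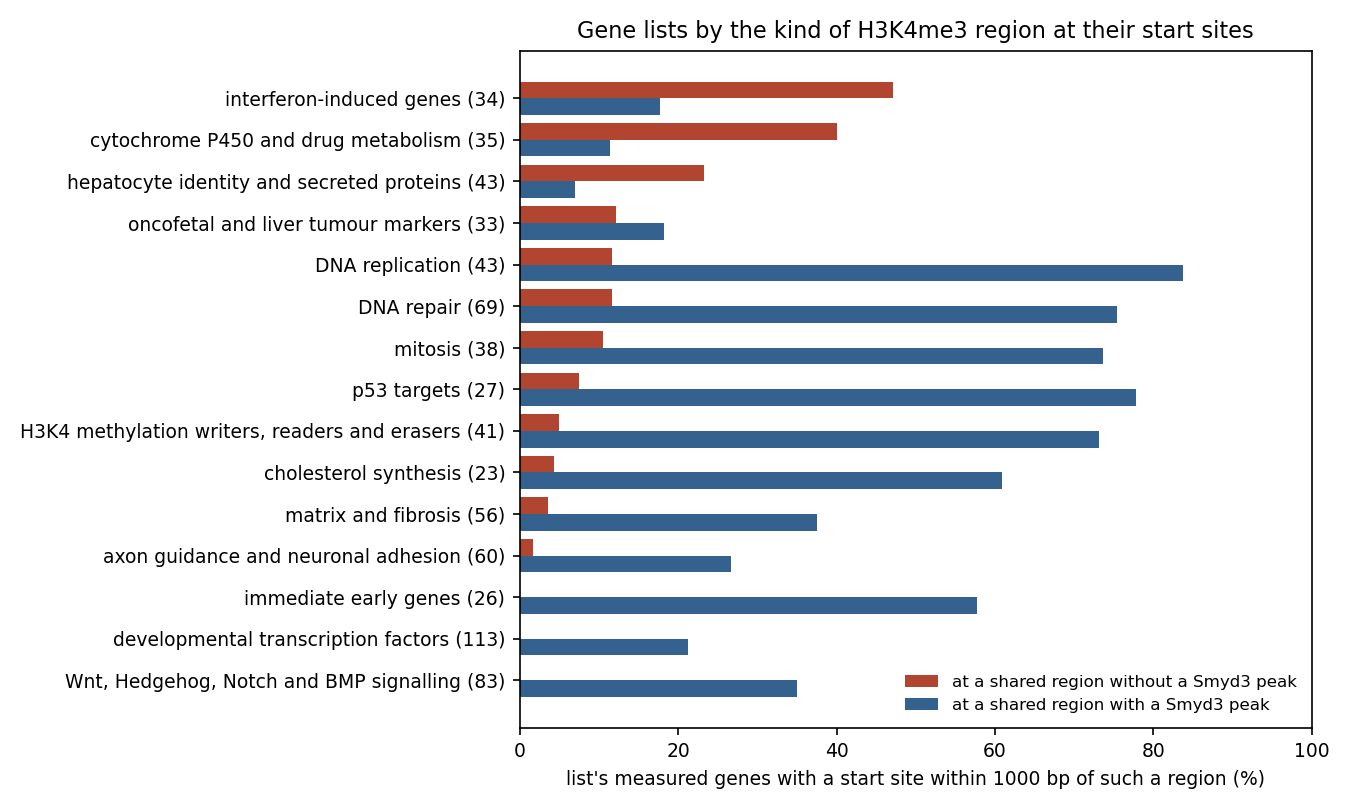
Percent of the measured genes of each list (y axis, number measured in brackets) whose start site is within 1000 bp of a shared H3K4me3 region under 4000 bp without (red) or with (blue) a Smyd3 peak. Interferon, P450 and hepatocyte lists have the longer red bars, and replication, repair and mitosis lists the longer blue ones.

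Values below are the authors' normalized read counts per gene, not divided by gene length, so levels are not compared between genes. The library sums ran from 22320634 to 28973396, and libraries of a group correlated at r of 0.956 to 0.978. Smyd3 itself read 59 to 89 in WT, 57 to 74 in DEN_WT, 17 to 29 in KO and 3 to 12 in DEN_KO. The 12 hepatocyte markers summed to 2518326 to 2733035 in WT, 2180997 to 3587536 in KO, 3332140 to 4937860 in DEN_WT and 2104333 to 3018447 in DEN_KO, so the sum was higher in DEN_WT than in WT, while 1 of the 12 rose and 3 fell in that comparison. DEN_KO replicate 2 stood apart from its group in tumour markers (summed level 44650 over 33 genes, against 4822 and 6926), and DEN_WT replicate 2 in several hepatocyte genes. Each replicate is labelled as its own library. The p-values rest on the spread between the 3 libraries within a group, pooled over the 4 groups in 1 fit. Each log2 fold change was taken after adding a pseudocount of 1, with the SE of the limma fit, which understates the change of low genes.

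DEN lowered more of these genes in wild-type livers than it raised. In DEN_WT against WT limma put 283 of 1519 genes higher (18.6%, against 16.1% of all tested genes) and 329 lower (21.7%, against 13.5%). In either direction the share was 40.3%, against 29.6% of all tested genes and 29.0% of 9009 genes at regions with a Smyd3 peak. At shared regions of 4000 bp or more it was 53.1% of 128 genes without a Smyd3 peak (28.9% lower) and 35.8% of 693 with one. It was 48.6% of 276 genes at regions listed in wild type only, so a raised share was not particular to the regions described here. The median log2 fold change of the 1519 genes was -0.10 against -0.02 over all genes. Which direction leads rests on the scaling. With libraries scaled to the same total, which moved the median of all genes by 0.21, 351 genes were higher and 211 lower, against 21.3% and 7.41% of all tested genes. In bulk liver, fewer cells of a type and less RNA per cell cannot be told apart.

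The genes together took a smaller part of all reads in DEN-treated wild type. They held 14.8% to 16.6% of the summed values in WT and 14.5% to 15.8% in KO, but 8.63% to 10.9% in DEN_WT and 13.3% to 14.3% in DEN_KO. The 8 genes with most reads (Mup-ps22, Mup10, Apoa2, Eef1a1, Mup2, Mup17, Pzp and Cyp3a11) are among them. Without those 8 the shares were 9.67% to 10.5%, 9.89% to 10.7%, 7.10% to 8.98% and 9.44% to 10.4%. The DEN_WT libraries did not overlap those of any other group in either form.

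Among genes raised by DEN in wild type, Lcn2, an iron-carrier-binding protein of inflamed liver, read 42, 56 and 65 in WT and 16278, 11421 and 14401 in DEN_WT. In DEN_KO it read 319, 4371 and 457, and in KO 147, 110 and 93. All DEN_WT values lie far above every other library, and DEN_KO replicate 2 lies between. It rose by 7.99 ± 0.68 in wild type (adjusted p = 4.4e-06) and was lower in DEN_KO by -4.01 ± 0.68 (adjusted p = 0.00082), with -5.18 without DEN_KO replicate 2 and -3.29 without DEN_KO replicate 1. Its H3K4me3 region (chr2:32241529-32243329, mm9) had 1801 bp in wild type and 627 bp in the knockout.

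Psrc1, a spindle protein and p53 target with the CpG-rich promoter shown above, read 3, 3 and 5 in WT, 336, 505 and 691 in DEN_WT, and 33, 138 and 27 in DEN_KO. The 3 groups do not overlap. The rise in wild type was 6.74 ± 0.55 (adjusted p = 3.5e-06) and the difference of DEN_KO from DEN_WT -3.27 ± 0.55 (adjusted p = 0.00083), or -3.99 without DEN_KO replicate 2. Its region went from 1886 to 1164 bp.

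Cd14, the co-receptor for bacterial lipopolysaccharide, read 56, 47 and 73 in WT, 76, 106 and 66 in KO. After DEN it read 1839, 1433 and 2494 in wild type and 181, 302 and 98 in the knockout. DEN_WT stands above all others, and DEN_KO overlaps KO. Here the region hardly differed in length, at 1579 and 1525 bp, while RNA rose by 5.00 ± 0.35 in wild type (adjusted p = 1.5e-06) and was lower in DEN_KO by -3.41 ± 0.35 (adjusted p = 5.1e-05). Tlr1, a receptor for bacterial lipopeptides, rose by 5.77 ± 0.53 (adjusted p = 7.7e-06), and Tnfsf13, the B-cell survival factor APRIL, by 5.11 ± 0.41 (adjusted p = 3.1e-06).

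Tff3, a mucosal repair peptide, read 2, 0 and 0 in WT, 3132, 960 and 2941 in DEN_WT, and 2242, 7636 and 703 in DEN_KO. The treated groups overlap, and both lie above WT and KO (2, 14 and 24). It rose with DEN by 10.49 ± 0.87 in wild type (adjusted p = 3.9e-06) and by 7.78 ± 0.87 in knockout (adjusted p = 0.00066), with 6.89 without KO replicate 1, 6.92 without DEN_KO replicate 2, 8.42 without KO replicate 3 and 8.64 without DEN_KO replicate 3. DEN_KO against DEN_WT gave 0.15 ± 0.87 (adjusted p = 0.91).

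Matrix and vessel genes were among them too. Col4a3 and Col4a4, collagen IV chains of basement membrane, share 1 region of 1246 bp between their starts (1238 bp in the knockout). Col4a3 read 11 to 20 in WT, 710, 1252 and 783 in DEN_WT and 144, 48 and 38 in DEN_KO, and rose by 5.69 ± 0.44 (adjusted p = 2.4e-06). Col4a4 rose by 3.28 ± 0.44 (adjusted p = 0.00014). Sparc, a collagen-binding matrix protein, read 934, 1048 and 1341 in WT and 4154, 22871 and 20412 in DEN_WT, with DEN_KO at 1455, 1271 and 939. DEN_KO differed from DEN_WT by -3.37 ± 0.47 (adjusted p = 0.00025), or -4.17 without DEN_WT replicate 1, the lowest of its group. Esm1, an endothelial proteoglycan, rose by 5.66 ± 0.51 (adjusted p = 7.4e-06). Of the 5 endothelial markers at these regions Cdh5, the junction cadherin of endothelium, rose by 1.32 ± 0.16 (adjusted p = 8e-05) and Pecam1, an adhesion molecule, by 0.93 ± 0.16 (adjusted p = 0.00079), with Clec4g at -0.34, Fcgr2b at -0.28 and Tie1 at -0.04 not past the threshold. Summed over 11 endothelial markers the level was 7404 to 8514 in WT and 9618 to 10008 in DEN_WT. The 12 stellate and fibroblast markers, of which 0 have such a region, summed to 5386 to 6162 and 6267 to 10803. The part of cell makeup in these results was not tested.

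Interferon-induced genes rose in DEN-treated wild type. Of the 16 at these regions 10 rose and 0 fell, against 16.1% and 13.5% of all tested genes, with a median of 1.00. Oas1a, an antiviral oligoadenylate synthetase, read 78, 57 and 38 in WT, 1072, 586 and 553 in DEN_WT and 205, 212 and 403 in DEN_KO, 3 groups that do not overlap. It rose by 3.64 ± 0.37 (adjusted p = 1.7e-05). Ifi44 rose by 3.24 ± 0.54 (adjusted p = 0.00067), Ifit2, an RNA-binding protein, by 2.23 ± 0.32 (adjusted p = 0.00024) and Oasl2 by 1.80 ± 0.27 (adjusted p = 0.0003). Ifi27l2b, outside the list, read 61, 65 and 43 in WT and 3001, 3099 and 3004 in DEN_WT, a rise of 5.75 ± 0.31 (adjusted p = 2.2e-07). In DEN_KO it read 625, 925 and 647, again apart from both. The length ratios at the 16 interferon genes ran from 0.63 to 3.08 with a median of 1.01, and the knockout region was the longer in 8.

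Mitosis genes at these regions rose as well, with 4 of 4 higher. Top2a, the topoisomerase that untangles chromosomes, read 12, 12 and 21 in WT and 136, 542 and 121 in DEN_WT, and rose by 3.75 ± 0.52 (adjusted p = 0.00019), or 3.06 without DEN_WT replicate 2, the highest of its group. Tpx2 rose by 3.72 ± 0.62 (adjusted p = 0.00068), Kif20a by 3.56 ± 0.56 (adjusted p = 0.00048) and Nusap1 by 3.30 ± 0.71 (adjusted p = 0.0037), each a spindle protein. Tpx2 was at 3.08 and Nusap1 at 2.51 without DEN_WT replicate 2. In the whole mitosis list 36 of 38 rose, and 28 of the 38 have a Smyd3 peak at their region.

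Among the 329 genes that fell with DEN in wild type were hepatocyte genes. Of the 14 genes for P450 enzymes and drug metabolism 10 fell (13.5% of all tested genes did), and 1 rose (Sult1a1, a sulfotransferase, 0.92 ± 0.25, adjusted p = 0.013, with 0 rising without DEN_WT replicate 1), with a median of -1.59. Over the whole list of 35, 26 fell and 1 rose, with a median of -1.74. Cyp2c54, a drug-metabolizing P450, read 9648, 15423 and 11493 in WT, 1547, 638 and 2529 in DEN_WT, and 8784, 4801 and 7208 in DEN_KO. DEN_WT lies below all other libraries. It fell by 3.14 on the log2 scale (SE 0.39, adjusted p = 7.7e-05) and was higher in DEN_KO by 2.31 ± 0.39 (adjusted p = 0.00076). Cyp3a11, a main drug-oxidizing P450, changed by -2.61 ± 0.36 (adjusted p = 0.00017) and Cyp2c50 by -2.62 ± 0.43 (adjusted p = 0.00063), or -1.94 without DEN_WT replicate 2. The P450 genes are close relatives, and how reads were shared between copies is not given in the sources used here.

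Gsta2, a glutathione transferase that detoxifies electrophiles, read 1005, 1261 and 1085 in WT, 1086, 880 and 598 in KO. After DEN it read 141, 89 and 230 in wild type and 1930, 894 and 1157 in the knockout. The DEN_WT livers lie below all other libraries, which overlap one another. It changed by -2.96 ± 0.34 with DEN in wild type (adjusted p = 4.3e-05) and was higher in DEN_KO by 3.13 ± 0.34 (adjusted p = 6.3e-05). Its region had 676 bp and shares its knockout region with another wild-type region.

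Lrtm1, a leucine-rich repeat membrane protein, read 743, 964 and 993 in WT and 50, 34 and 122 in DEN_WT, with 1332, 438 and 958 in DEN_KO. It changed by -3.89 ± 0.43 (adjusted p = 3.3e-05) and 3.77 ± 0.43 (adjusted p = 8.3e-05) in the 2 comparisons, and its region went from 1027 to 2744 bp. Selenbp2, a selenium-binding liver protein, read 36373, 48120 and 43440 in WT and 12180, 1213 and 1554 in DEN_WT. In DEN_KO it read 10816, 30353 and 41111, so that DEN_KO replicate 1 falls under the highest DEN_WT liver. It changed by -3.90 ± 0.68 with DEN (adjusted p = 0.00092), with -3.28 without DEN_WT replicate 2 and -4.95 without DEN_WT replicate 1. Hamp, the iron hormone hepcidin, changed by -3.11 ± 0.35 (adjusted p = 4.1e-05) and Acss3, an acyl-CoA synthetase, by -3.10 ± 0.39 (adjusted p = 0.0001).

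The Mup genes encode urinary pheromone carriers of male mice and include 4 of the 8 with most reads. Mup17 read 43787, 219199 and 149461 in WT, 18191, 1882 and 11888 in DEN_WT and 49487, 59327 and 87283 in DEN_KO. All DEN_WT values are below the others, with replicate 2 the lowest. The change with DEN was -3.93 ± 0.72 (adjusted p = 0.0012), with -2.94 without that liver, -4.58 without DEN_WT replicate 1 and -4.61 without WT replicate 1. Mup2 was at -3.76, Mup-ps22 at -3.65 and Mup10 at -3.55 (adjusted p = 0.0017, 0.0012 and 0.0023), and -2.68, -2.84 and -2.49 without it. Without DEN_WT replicate 1, Mup2 was at -4.47 and Mup10 at -4.28. Because Mup copies hardly differ in sequence, single-copy values are uncertain, and the same reads may stand behind several of them. Serpina4-ps1, a serpin pseudogene, was at -4.09 ± 0.63 (adjusted p = 0.00042).

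Of the 10 hepatocyte identity genes 6 fell and 0 rose (median -1.10), against 13.5% and 16.1% of all tested genes. Over the whole list of 43, 12 fell and 3 rose, with a median of -0.40. Hpd, an enzyme of tyrosine breakdown, was at -2.06 ± 0.35 (adjusted p = 0.00083), Nr1i3, the xenobiotic receptor CAR, at -1.88 ± 0.38 (adjusted p = 0.0025, or -2.47 without WT replicate 1), Otc of the urea cycle at -1.57 ± 0.25 (adjusted p = 0.0005) and Nr1h4, the bile acid receptor FXR, at -1.42 ± 0.24 (adjusted p = 0.00079). Hnf4a, a master regulator of hepatocytes, was at -0.28 ± 0.22 (adjusted p = 0.35). Of 84 tested Zfp genes 6 rose and 19 fell, with a median of -0.36, beside the same shares of all tested genes. That lower count ran from 6 without WT replicate 2 and 7 without DEN_WT replicate 3 to 30 with quantile normalization, and was 9 with equal totals.

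Beside these results, 9 cholangiocyte markers summed to 1282 to 1569 in WT, 10431 to 17424 in DEN_WT and 1571 to 2351 in DEN_KO, and 1 of them, Muc1, is at such a region (0.28 ± 0.64, not past the threshold). The 11 macrophage markers summed to 7024 to 7280, 4178 to 14888 and 12291 to 16758. T and NK, B and plasma, and neutrophil markers have 0 genes at these regions, and no marker list has a gene at 0 in every library. The part of such cells was not tested.

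**Figure D4:**
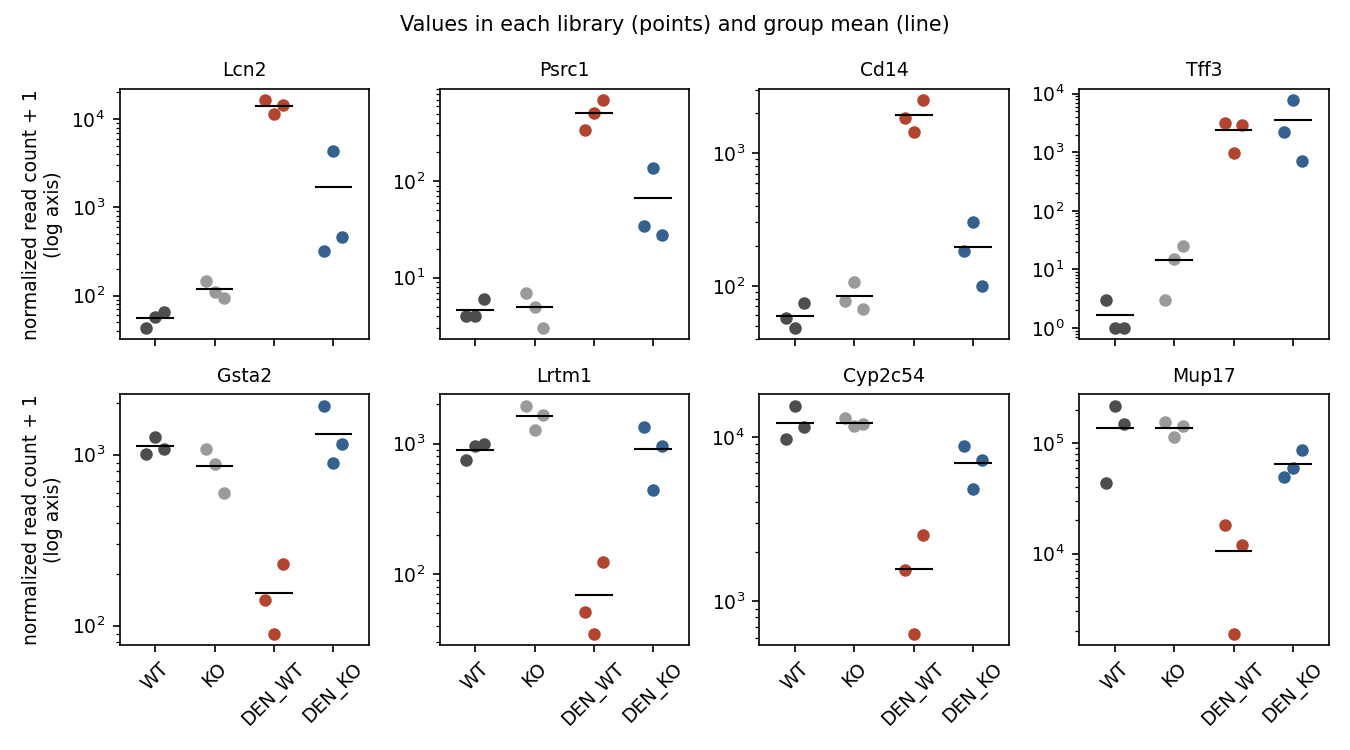
Normalized read count + 1 (log y axis) of 8 genes whose start is at a region without a Smyd3 peak, in each of the 12 libraries by group (x axis); points are libraries and lines group means. In the top row DEN_WT is above WT and KO in every gene, and in the bottom row DEN_WT lies below every other library.

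DEN-treated knockout and wild-type livers differed at these genes about as often as over all genes. In DEN_KO against DEN_WT 254 of 1519 genes were higher (16.7%, against 16.4% of all tested genes) and 291 lower (19.2%, against 17.4%), and the median was -0.05 against -0.06. In either direction the share was 35.9% against 33.9%, so the counts are no result about these regions. At regions with a Smyd3 peak 14.1% were higher and 19.7% lower. Without DEN_WT replicate 2 the counts were 196 and 219. The comparison uses the same DEN_WT livers as the one above, so a value far from the rest in DEN_WT enters both.

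Within it, most P450 genes at these regions were higher in the knockout. Of 14 P450 and drug metabolism genes 9 were higher, against 16.4% of all tested genes, and 1 lower (Nat2, an N-acetyltransferase, -0.55 ± 0.20, adjusted p = 0.049, a call lost in 12 of the other settings). Over the whole list of 35, 27 were higher. Of the 10 hepatocyte identity genes 4 were higher and 0 lower, and of the 2 hepatocyte markers at these regions, Hnf4a and Tdo2, 0 passed the threshold. Over the whole hepatocyte identity list of 43, 17 were higher and 1 lower. Nr1i3 read 2285, 7578 and 7958 in WT, 12350, 11539 and 10559 in KO. After DEN it read 1374, 1008 and 1995 in wild type and 11516, 11454 and 13284 in the knockout. DEN_WT lies below every other library, and KO and DEN_KO lie above WT. It was higher in DEN_KO by 3.10 ± 0.38 (adjusted p = 0.00013), with a region of 1124 bp in wild type and 3296 bp in the knockout. 1100001G20Rik was higher by 3.95 ± 0.53 (adjusted p = 0.0002, with 3.16 without DEN_WT replicate 2 and 4.59 without DEN_WT replicate 1), Agxt2l1, a phospholyase, by 2.93 ± 0.39 (adjusted p = 0.00021) and Hpd by 2.54 ± 0.35 (adjusted p = 0.00026). Cyp3a11 was higher by 1.29 ± 0.36 (adjusted p = 0.014), a call lost with an adjusted p of 0.0516 without DEN_WT replicate 2 and of 0.0608 without DEN_KO replicate 1.

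A pair of respiratory chain genes was also higher. Ndufa3, a subunit of complex I, read 239, 150 and 213 in WT, 136, 96 and 91 in DEN_WT and 688, 814 and 755 in DEN_KO, with DEN_KO above all other libraries. The difference was 2.81 ± 0.30 (adjusted p = 6.3e-05). Cox6b1, a subunit of complex IV, was higher by 2.96 ± 0.38 (adjusted p = 0.00016). In each case the knockout region was the longer, 1120 against 739 bp and 1794 against 1474 bp.

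Of the 16 interferon genes 0 were higher in DEN_KO and 6 lower, against 16.4% and 17.4% of all tested genes, with Ifi44 at -1.94 ± 0.54 (adjusted p = 0.014, or 0.0552 without DEN_WT replicate 1), Oas1a at -1.43 ± 0.37 (adjusted p = 0.0096) and Ifit2 at -1.26 ± 0.32 (adjusted p = 0.0085). Without DEN_WT replicate 1, 3 were lower and 1 higher. The same 16 genes also rose with DEN in knockout, with 9 higher and 0 lower in DEN_KO against KO (median 1.22). Over all tested genes 8.91% were higher and 6.02% lower there. The calls of Ifi44 and Ifit2 in that comparison were lost without some single libraries. The interaction passed the threshold for 1 of the 16 in the positive and 2 in the negative direction. Of 4 mitosis genes 3 were lower in DEN_KO than in DEN_WT, and 1 without DEN_WT replicate 2 or without DEN_KO replicate 3. Among the largest differences Prelid2, a lipid transfer protein gene, was lower by -3.48 ± 0.39 (adjusted p = 7.4e-05), Golm1, a Golgi protein used as a liver tumour marker, by -3.21 ± 0.43 (adjusted p = 0.0002) and Naip2, an inflammasome sensor, by -3.15 ± 0.30 (adjusted p = 3.7e-05). Prelid2 had a region of 2928 bp in wild type and 1391 bp in the knockout, Golm1 1237 and 1236 bp. Of 84 Zfp genes 2 were higher and 21 lower (median -0.44), beside the same 16.4% and 17.4%.

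**Figure D5:**
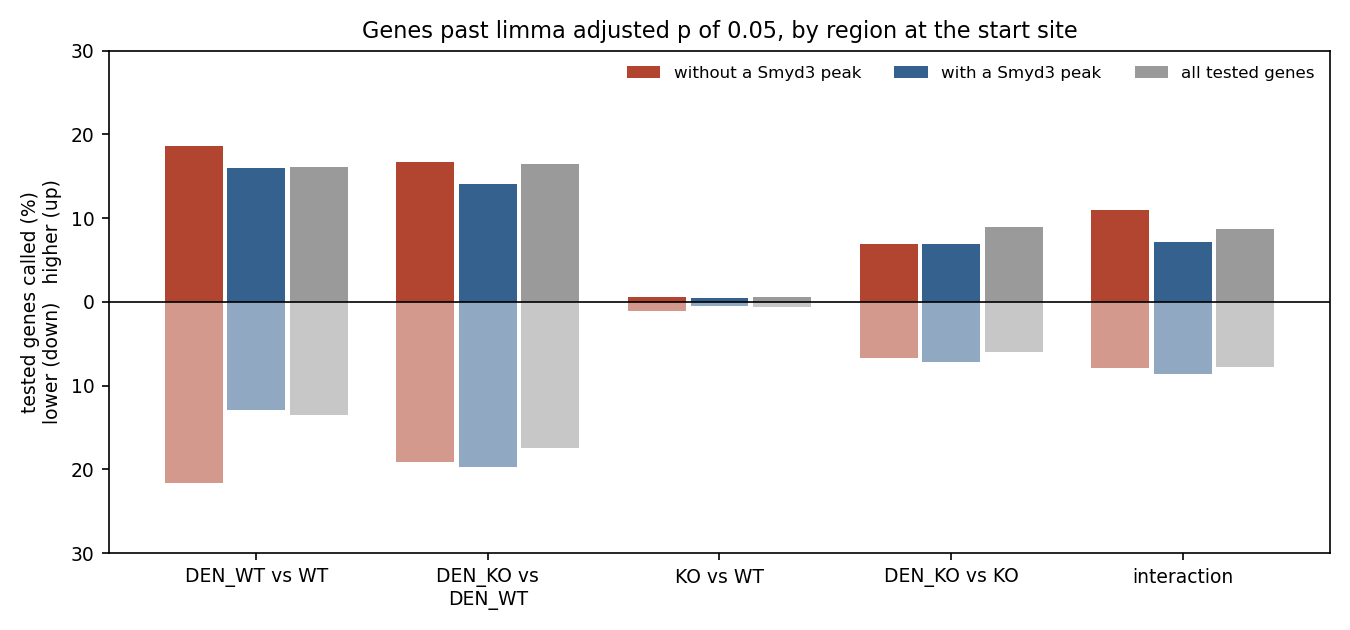
Percent of tested genes past a limma adjusted p of 0.05 (y axis, higher above and lower below 0) in 5 comparisons, for genes at regions without a Smyd3 peak (red, n = 1519), with one (blue, n = 9009) and all 16471 tested genes (grey). The red bar below 0 in DEN_WT vs WT reaches 21.7% against 13.5% for all genes, and in DEN_KO vs DEN_WT the 3 sets are near each other.

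The length of the mark and the RNA of the DEN-treated groups could be set side by side, since chromatin and RNA both came from DEN-treated livers. Over 1478 genes the length ratio and the DEN_KO against DEN_WT log2 fold change correlated at Pearson's r of 0.12 (0.077 by Spearman's rank correlation), a weak relation across genes, which are not independent replicates. Where the knockout region was at least 1.5 times as long, 74 of 370 genes were higher (20.0%) and 63 lower (17.0%). Where the wild-type region was at least 1.5 times as long, 9 of 87 were higher (10.3%) and 25 lower (28.7%). At regions with a Smyd3 peak 11.3% were higher and 31.5% lower in the latter class, and where the knockout region was at least 1.5 times as long 13.1% were higher and 21.8% lower. Whether the sets differ was not tested. The rank correlation was 0.023.

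At the 14 P450 and drug metabolism genes the knockout region was longer in 12 (85.7%), at least 2 times as long in 7, and the median ratio was 2.07, against 68.9% longer, 12.3% at least 2 times as long and a median of 1.16 over all regions with an assigned gene. Cyp2c54 went from 653 to 2679 bp, Cyp2c50 from 1141 to 3008 bp, Cyp3a25 from 2501 to 7032 bp and Cyp2j5 from 2809 to 6521 bp. In DEN_KO against DEN_WT, RNA was higher for Cyp2c54, Cyp2c50 and Cyp2j5. It was not past the threshold for Cyp3a25 (0.82 ± 0.34, adjusted p = 0.078). Nat2 had a longer region in the knockout (1175 and 1419 bp) and lower RNA. Sult1a1 (3759 and 2177 bp) and Cyp2a5 (3162 and 2823 bp) were shorter, and their RNA did not differ past the threshold between DEN_KO and DEN_WT (0.11 ± 0.25 and 0.41 ± 0.51). Cyp7a1, with the widest ratio of the list, had RNA values of 1297, 312 and 1630 in DEN_WT and 906, 2779 and 2159 in DEN_KO, which overlap, and a log2 fold change of 1.01 ± 0.65 (adjusted p = 0.24). Among the 10 hepatocyte identity genes 4 regions were at least 2 times as long, those of Nr1i3, Hpd, Nr1h4 and Tdo2. RNA of Nr1i3 and Hpd was higher in DEN_KO than in DEN_WT, while that of Nr1h4 (0.46 ± 0.24, adjusted p = 0.16) and Tdo2 was not past the threshold. At the 87 Zfp genes the median ratio was 1.19.

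In untreated livers few of these genes differed. In KO against WT 9 of 1519 were higher (0.592%, against 0.546% of all tested genes) and 17 lower (1.12%, against 0.613%), and 26 in either direction against 1.16%. An unadjusted p below 0.05 was found for 270. The count ran from 9 without KO replicate 1 to 55 without KO replicate 3, so it rests on single livers, and with equal totals, which moved the median of all genes by 0.12, it was 10 higher and 7 lower. As3mt, an arsenic methyltransferase, read 258, 135 and 166 in WT and 650, 821 and 736 in KO, 2 groups that do not overlap (2.02 ± 0.29, adjusted p = 0.0047). Ube2u, a ubiquitin-conjugating enzyme, was higher by 3.00 ± 0.43 (adjusted p = 0.0039), and 4930481A15Rik by 2.61 ± 0.52 (adjusted p = 0.032), a call lost without WT replicate 1 (1.92) or 2, or KO replicate 1 or 2, and at 3.43 without WT replicate 3. Cd59a, a complement inhibitor, read 2329, 2980 and 2620 in WT and 765, 560 and 786 in KO, and was lower by -1.92 ± 0.20 (adjusted p = 0.00058). Gm15638, annotated as antisense, read 226, 211 and 90 in WT and 5, 1 and 6 in KO (-5.22 ± 0.55, adjusted p = 0.00058). Strand use in counting is not given in the sources used here, so its reads and those of its partner gene cannot be told apart.

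In knockout livers DEN called 105 genes higher (6.91%, against 8.91% of all tested genes) and 101 lower (6.65%, against 6.02%), and 206 in either direction (13.6%, against 14.9%). Without DEN_KO replicate 2 the counts were 60 and 35, and with equal totals 114 and 70. Psrc1 rose by 3.43 ± 0.55 (adjusted p = 0.0022, or 2.71 without DEN_KO replicate 2). Zfp472 read 95, 104 and 98 in KO and 44, 43 and 29 in DEN_KO, and changed by -1.36 ± 0.26 (adjusted p = 0.006). Pdcl, a phosducin-like protein gene, changed by -1.65 ± 0.27 (adjusted p = 0.0025) and the lincRNA Gm12718 by -2.17 ± 0.50 (adjusted p = 0.014, or -1.51 without DEN_KO replicate 2).

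The interaction, the DEN effect in KO minus that in WT, tests the difference of the effects itself. It was past the threshold in the positive direction for 167 of 1519 genes (11.0%, against 8.73% of all tested genes) and in the negative for 119 (7.83%, against 7.83%), and for 286 in either (18.8%, against 16.6%). With equal totals, which moved the median of all genes by -0.15, the counts were 126 and 149, so which direction leads rests on the scaling. At regions with a Smyd3 peak 7.13% were positive and 8.60% negative. The 14 P450 and drug metabolism genes supplied 4 positive and 0 negative values, and hepatocyte identity genes also 4 and 0. Over the whole lists the counts were 14 and 0 of 35 genes, and 11 and 0 of 43. Of the P450 genes at these regions only Cyp2c54 and Cyp3a11 passed the threshold.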

How the data were processed

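RNA-seq of 12 mouse livers in 4 groups of 3 and 3 ChIP-seq region lists were used. Those for RNA polymerase II and the inputs were not analysed here. The tools named are Bowtie2, Cufflinks, DESeq, cutadapt and TopHat2 2.0.9, with build mm9, per the submitters' processing notes. Not given in the sources used here are their roles, the peak caller and its settings, whether the 2 ChIP replicates were pooled, and the gene annotation. The deposited RNA values are treated as a score: normalized read counts that the authors rounded to whole numbers, with median-ratio factors between 0.9986 and 1.004, so no count model was fitted. The score column of the deposited region lists is 0 in every line. The gene table deposited by the authors also gives GC content as a fraction of bases, which entered no test.

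Regions were selected and genes assigned as the report states. Genes that reached 10 in 3 or more libraries (16471 of 37583) were fitted in 1 limma model of the 4 groups (limma 3.58.1, R 4.3.3) on log2(value + 1) with a trend and 8 residual degrees of freedom, with Benjamini-Hochberg adjustment over all tested genes at 0.05. A single gene tested alone, 3 libraries against 3, could not go below an exact p of 0.1. Recovery of known changes was tested on simulated data. Intervals are exact binomial (95%, counting error only), from scipy 1.17.1. Tables were handled with Python 3.11.15 and pandas 2.3.3 and drawn with matplotlib 3.10.9.

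Genes were named by rule: with a mean of at least 50, the 10 with the largest change per direction in DEN_WT against WT and in DEN_KO against DEN_WT that passed the test with libraries that do not overlap, the first 3 per direction in the other comparisons, the 8 with most reads, and examples from each list by size of change. Region groups at the ends of length, gap and ratio were named likewise. The regions and gene lists were chosen with earlier results of these data known. A planned comparison of promoter motifs between gene sets is void, since 1283 of 1767 genes (72.6%) matched a RefSeq promoter, under the 80% needed. Replicate numbers did not pair samples: over 18 same-numbered pairs the deviations correlated at r of -0.10 to 0.12, and 1 was over 0.1. Alternatives covered scaling, filter, pseudocount, overlap, length limit, start window, the replicate block and each library left out.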

Additional observations from a re-analysis of the deposited data

Results flagged for a closer look

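The DEN effect differed between genotypes at 38 of 80 tested genes, by the limma interaction (DEN effect in KO minus that in WT, log2, adjusted p from 0.000548 to 0.0482). The 80 were named by size of change, by most reads or as examples of a list. Genes named only as members of a list were not looked at here. The background is 16.6% of all tested genes, and since the genes were named for their size in comparisons that share these libraries, nothing is read from the share.

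The value was negative for 18. Among secreted, surface and immune genes it was -5.09 for Lcn2, -3.89 for Cd14, -3.08 for Tnfsf13, -2.57 for Tlr1 and -1.72 for Naip2. Matrix and vessel genes gave -3.64 for Col4a4, -3.49 for Col4a3, -3.37 for Esm1, -3.15 for Sparc and -1.05 for Cdh5. Spindle and chromosome genes gave -3.31 for Psrc1 and -2.44 for Top2a. The interferon-linked Ifi27l2b was at -2.44 and Oas1a at -1.64. The others were Prelid2 at -4.88, Golm1 at -3.46, Ube2u at -2.14 and Pdcl at -1.29.

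It was positive for 20. Drug metabolism genes gave 3.56 for Gsta2, 2.28 for Cyp2c54, 1.94 for Ces1d and 1.78 for Cyp3a11. Receptors, enzymes and secreted proteins of hepatocytes gave 2.84 for Hpd, 2.7 for Hamp, 2.56 for Apoa2, 1.95 for Nr1i3, 1.6 for Nr1h4, 3.28 for Agxt2l1, 2.49 for Acss3, 3.1 for Selenbp2, 3.04 for Mup-ps22 and 3.26 for Serpina4-ps1. Respiratory chain genes gave 2.52 for Ndufa3 and 2.32 for Cox6b1. Gm15638 had the highest value, 7.02, with KO libraries at 1 to 6. Lrtm1 was at 2.93, 1100001G20Rik at 3.25 and Mgmt, a DNA repair enzyme, at 1.1.

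For 11 of these the call was lost when some single libraries were left out, with the highest adjusted p from limma in brackets: Oas1a (0.114), Selenbp2 (0.103), Mup-ps22 (0.0983), Mgmt (0.0955), Pdcl (0.084), Tlr1 (0.0825), Top2a (0.082), Cyp3a11 (0.0692), Serpina4-ps1 (0.068), Ube2u (0.0681) and Nr1i3 (0.0666). Leaving out single libraries also moved some effects by over 1.5 times on the fold-change scale, and the values given here are on the log2 scale. Without DEN_WT replicate 1 the value was 3.89 for 1100001G20Rik, 4.15 for Selenbp2 and -3.95 for Sparc, and without DEN_WT replicate 2 it was 2.46 for 1100001G20Rik, 2.49 for Selenbp2, 2.23 for Mup-ps22 and -1.75 for Top2a. Without DEN_KO replicate 2 it was -6.27 for Lcn2 and -4.03 for Psrc1, without DEN_KO replicate 1 -4.38 for Lcn2 and 3.95 for Serpina4-ps1, and without DEN_KO replicate 3 -2.72 for Esm1. Without KO replicate 3 it was -3.19 for Tlr1 and 4.06 for Serpina4-ps1, and without WT replicate 1 2.54 for Nr1i3.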

How the results depend on the processing

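Counts of called genes moved by over 1.5 times under these settings. With equal totals, DEN_WT against WT had 211 lower, and KO against WT 17 in all and 7 lower. Quantile normalization gave 11 lower in KO against WT. With regions under 2000 bp, fewer genes are tested (1094), and the counts were 202 lower in DEN_WT against WT, 150 higher in DEN_KO against DEN_WT, 11 lower in KO against WT, 68 higher in DEN_KO against KO, and 183 in all and 97 positive for the interaction. That limit also gave a median length of 892.5 bp, a median ratio of 1.21 and 43.0% with a start site; an overlap of 50% gave a ratio of 1.19, and a window of 5000 bp gave 56.0%. With each library left out in turn, counts ran from 485 to 644 (236 to 295 higher, 248 to 349 lower) in DEN_WT against WT, 415 to 583 (196 to 273, 216 to 310) in DEN_KO against DEN_WT, 9 to 55 (3 to 15, 6 to 40) in KO against WT, 95 to 227 (60 to 123, 35 to 113) in DEN_KO against KO and 189 to 316 (121 to 191, 68 to 125) for the interaction. The cause was not tested. Of 2411 alternative values for 127 called gene results, 2298 kept direction and call, 113 kept only direction (21 results) and 0 reversed. Those gene results cover DEN_WT against WT and DEN_KO against DEN_WT. For KO against WT and DEN_KO against KO they hold only genes named for that comparison, and the interaction is not among them. With the replicate block, limma called 575, 514, 23, 189 and 268 genes in the same order of comparisons; the numbers pair no samples. The promoter motif comparison was not run. Each region list is single, so no region value has a replicate error, and values of few reads limit the lowest genes.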
